A study of Homo sapiens with 16 samples.

Results

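The genes described here copy DNA in S phase. They are 46 listed genes of DNA replication, all found by symbol among the 18332 genes of the deposited table, measured by RNA sequencing in 2 established human breast cancer cell lines. The members were taken by name from a list drawn up with earlier results of these data known, and were sorted into 10 roles from origin licensing to chromatin assembly. MDA-MB-231 and MDA-MB-468 are both labelled estrogen receptor negative, and both were grown for 48 hours. Low glucose, at 5 mM, served as control and high glucose, at 25 mM, stood for hyperglycemia. Each of the 4 groups held 4 replicates, which makes 16 samples. Per the study's methods for its culture experiments, the cells were first conditioned in low glucose and the medium held no serum, and no sample here carries an osmotic control. Nothing in the labels says whether replicates were separate cultures, so p-values measure only the spread between these samples. Summed over the genes of the table, libraries held 14094597 to 24425916 reads, which is not the sequenced depth. Replicates of a group differed by more than counting noise in every pair, and no library was counted as a duplicate.

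Vimentin (VIM), a mesenchymal filament protein, averaged 96228 normalized reads in low-glucose MDA-MB-231, against 21.5 in low-glucose MDA-MB-468. E-cadherin (CDH1), an epithelial adhesion protein, averaged 5.51 and 2007. The estrogen receptor gene ESR1 averaged 1.31 and 57.9, and the leukocyte gene PTPRC 12.5 and 8.77. MDA-MB-231 is known as mesenchymal and MDA-MB-468 as epithelial, and these levels went the same way. A normalized read is a read count that the authors divided by a single size factor per library.

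DNA replication starts at origins that are licensed before S phase, when the origin recognition complex, CDC6 and CDT1 load the ring of MCM2 to MCM7 onto DNA. CDC45 and the GINS complex then turn this ring into the moving helicase, primase and the polymerases copy both strands, and the clamp PCNA holds the polymerases on the template. Many of these genes are transcribed as cells pass from G1 into S phase under E2F transcription factors, so in cultured cells their RNA is widely read as a mark of cycling. In RNA from whole cultures, fewer cells in S phase and less RNA per cell cannot be told apart.

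High glucose lowered the replication genes of MDA-MB-231 across nearly all roles. All 46 had a negative log2 fold change (high minus low), and 41 passed the test as lower, 89.1% of the members against a background of 9.37% of the 14884 genes tested in that line. None was called higher, where the background was 5.71%, and none had a positive value at an unadjusted p under 0.05 by limma, edgeR or DESeq2. The test was limma on log2(normalized reads + 1) with Benjamini-Hochberg adjustment over all genes tested and a threshold of 0.05, and fold changes throughout are on that scale with their standard error (SE). The median over the members was -0.34, against 0.00 over all genes, and the members ranged from -0.65 (TYMS) to -0.05 (RPA2). The 4 values of high glucose lay entirely below the 4 of low glucose in 41 members, while groups did not overlap in 18.7% of all genes tested. Taken as a sum, the members held 0.248% ± 0.00210 (SD, n = 4) of all normalized reads in low glucose and 0.202% ± 0.000617 in high glucose. The 5 members that missed the threshold were POLA2 -0.25, RFC1 -0.09, RPA2 -0.05, RPA3 -0.07 and TIPIN -0.12, with adjusted p of 0.0848, 0.181, 0.548, 0.486 and 0.473.

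In MDA-MB-468 the same genes split. High glucose raised 15 members and lowered 15, with 16 past neither side, so 32.6% were called in each direction against backgrounds of 24.9% higher and 22.7% lower among 15757 genes tested. Calls were far more common over all genes in this line, and the members' shares stood much nearer to them. The median over members was -0.01, against 0.00 over all genes, with a range from -0.52 (ORC6) to 0.59 (POLD2). The glucose groups did not overlap in 27 members, 42.5% of all genes tested being so. Members held 0.432% ± 0.00216 (SD, n = 4) of normalized reads in low glucose and 0.438% ± 0.00166 in high glucose. Opposite calls fell within single protein complexes: GINS2 rose and GINS4 fell, MCM5 rose and MCM7 fell, and RPA1 rose where RPA2 fell. Calls in both directions were common over all genes in this line, and opposite calls within other complexes were not counted. Such pairs are therefore not read as particular to replication genes.

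**Figure D1:**
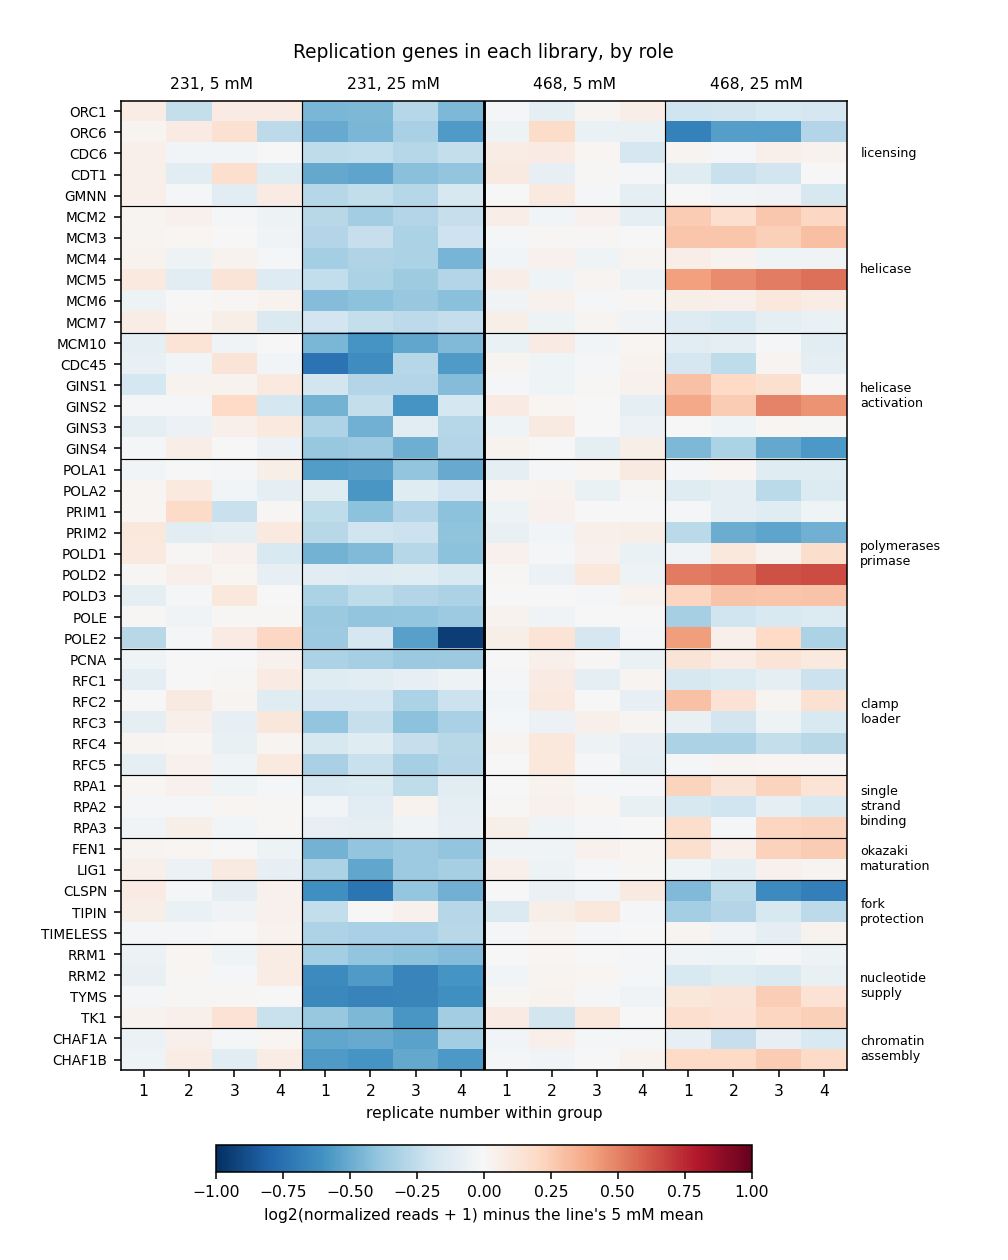
Heat map of the 46 members (rows, by role) in the 16 libraries (columns). Colour is log2(normalized reads + 1) minus the mean of the 4 low-glucose libraries of the same line, so blue is below and red above that mean. The 4 high-glucose libraries of MDA-MB-231 are blue in nearly every row, with library medians from -0.34 to -0.32, whereas those of MDA-MB-468 hold red and blue rows side by side, with library medians from -0.03 to 0.00.

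Set against each other, 14 members were lower in MDA-MB-231 and higher in MDA-MB-468, 11 were lower in both lines, 16 were lower in MDA-MB-231 with no call in MDA-MB-468, and the 5 not called in MDA-MB-231 were called in MDA-MB-468 (1 higher, 4 lower). How many of all genes fall into each of these combinations was not counted. Calls in MDA-MB-468 were common over all genes tested (24.9% higher, 22.7% lower). These counts are therefore not read as particular to the members. The difference of the responses themselves, MDA-MB-468 minus MDA-MB-231, was tested as the interaction contrast of a fit over all 16 samples. It was positive and past the threshold for 33 members, 71.7% of them against a background of 17.0% of 17115 genes tested. None was past it in the negative direction, where the background was 13.9%, and none had a negative value at an unadjusted p under 0.05 by limma, edgeR or DESeq2. The median difference was 0.35, against 0.00 over all genes. The 3 members with the largest differences were TYMS (0.80 ± 0.04, adjusted p = 8.44e-10), MCM5 (0.79 ± 0.08, adjusted p = 7.04e-07) and CHAF1B (0.77 ± 0.06, adjusted p = 1.56e-07), followed by GINS2 (0.76) and POLD2 (0.71). The lines were not shown to differ for 13 members, among them CLSPN (0.04 ± 0.12), ORC6 (-0.06 ± 0.14) and GINS4 (-0.08 ± 0.08), each of which was lower in both lines. Among these 13, the largest differences were POLE2 0.59 (adjusted p = 0.0658), PRIM1 0.28 (adjusted p = 0.0507) and ORC1 0.24 (adjusted p = 0.0696).

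**Figure D2:**
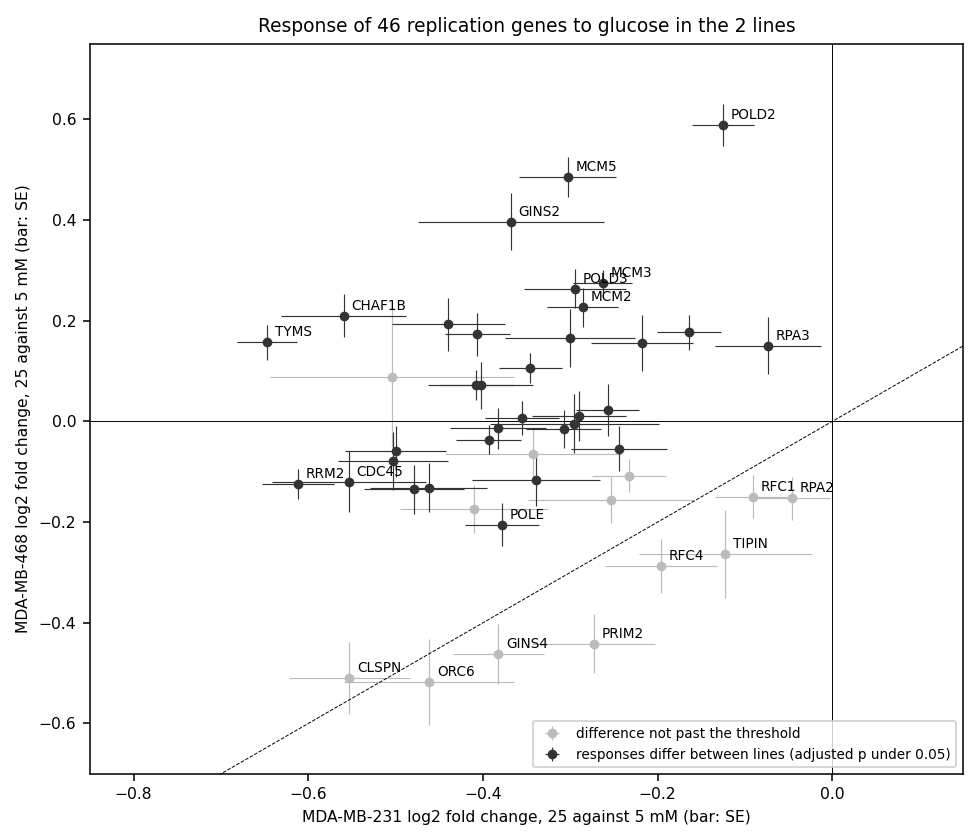
Log2 fold change of high against low glucose for each member in MDA-MB-231 (x axis) and MDA-MB-468 (y axis), with bars of 1 SE from limma and a dashed line where both are equal. Dark points are the 33 members whose responses differed past the threshold, all above the dashed line. All 46 points lie left of 0 on the x axis and are spread to both sides of 0 on the y axis.

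Sequence features of the members' promoters were looked at apart from the response. RefSeq promoters (GRCh38.p14) were matched for 40 of the 46 members, and the 250 bases before each start were searched on both strands for 4 octamers of the E2F type (TTTCCCGC, TTTGGCGC, TTTCGCGC and TTTGCCGC), for CCAAT, the core of NF-Y sites, and for TTTGAA, the core of the CHR element found in mitotic promoters. An octamer was present in 12 of 40 (30.0%). It was present in 2.79% of the 27305 RefSeq promoters on main chromosomes, and in 4.30% of the 11941 of genes tested over all samples. CCAAT was present in 24 of 40 (60.0%), against 33.0% and 34.5%, and TTTGAA in 1 of 40 (2.50%, RRM1), against 13.6% and 8.59%. These backgrounds were not matched to the members for base composition. Matches of different octamers could overlap, as they did in MCM6. The 12 members with an octamer had a median log2 fold change of -0.37 (MDA-MB-231, 11 called lower) and -0.04 (MDA-MB-468, 4 higher, 4 lower), and the 28 without had -0.33 (26 called lower) and -0.03 (8 higher, 9 lower). A match is a stretch of letters and not a measured site. Only exact octamers were counted, and CDC6 and CDC45, counted as without, hold TTTGGCGC with a different last base. The comparison therefore does not separate promoters with E2F-type sequence from promoters lacking it.

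Promoters of 5 members are printed 5′ to 3′ on the gene's strand, ending at the base before the start, with E2F-type octamers of either strand in capitals. TYMS, MCM6, PCNA and GINS2 are shown because they carry octamers and responded differently in the lines, and POLD2, the member with the largest rise in MDA-MB-468, because it carries none. They lie at chr18:657403-657652 (plus strand) for TYMS, chr2:135876444-135876693 (minus strand) for MCM6, chr20:5126623-5126872 (minus strand) for PCNA, chr16:85688955-85689204 (minus strand) for GINS2 and chr7:44123549-44123798 (minus strand) for POLD2.
TYMS: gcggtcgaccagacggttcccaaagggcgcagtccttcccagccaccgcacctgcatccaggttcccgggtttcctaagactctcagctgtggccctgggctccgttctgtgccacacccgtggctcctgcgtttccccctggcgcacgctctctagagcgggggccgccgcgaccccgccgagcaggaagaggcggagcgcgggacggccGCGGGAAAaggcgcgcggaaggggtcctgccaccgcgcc
MCM6: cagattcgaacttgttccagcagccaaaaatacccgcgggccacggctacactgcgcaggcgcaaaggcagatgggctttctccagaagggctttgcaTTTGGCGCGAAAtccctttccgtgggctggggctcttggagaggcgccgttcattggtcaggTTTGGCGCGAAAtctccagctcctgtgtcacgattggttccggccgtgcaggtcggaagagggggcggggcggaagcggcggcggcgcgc
PCNA: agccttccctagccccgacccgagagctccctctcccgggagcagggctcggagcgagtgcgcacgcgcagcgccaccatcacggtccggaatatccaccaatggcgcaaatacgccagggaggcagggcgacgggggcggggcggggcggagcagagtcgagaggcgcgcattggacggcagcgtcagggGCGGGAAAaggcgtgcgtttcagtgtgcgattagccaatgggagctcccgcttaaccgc
GINS2: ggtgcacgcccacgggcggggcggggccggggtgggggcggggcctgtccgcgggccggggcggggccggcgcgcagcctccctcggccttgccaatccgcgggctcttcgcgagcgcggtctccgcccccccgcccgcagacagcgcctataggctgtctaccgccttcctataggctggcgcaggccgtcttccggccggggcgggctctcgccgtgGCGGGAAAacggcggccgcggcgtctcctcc
POLD2: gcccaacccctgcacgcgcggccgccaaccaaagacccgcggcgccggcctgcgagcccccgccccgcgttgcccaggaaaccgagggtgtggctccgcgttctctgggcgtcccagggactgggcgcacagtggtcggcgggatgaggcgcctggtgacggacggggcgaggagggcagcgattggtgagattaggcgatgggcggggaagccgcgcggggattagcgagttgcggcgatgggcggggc
In TYMS, PCNA and GINS2 the capitals are a single TTTCCCGC read from the other strand. In MCM6 each of the capital runs holds TTTGGCGC on the gene's strand overlapping TTTCGCGC on the other.

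RNA of the origin licensing genes was lower in MDA-MB-231 for 5 of 5 members. CDC6, the ATPase that loads the helicase with CDT1, gave 1505, 1429, 1429 and 1464 normalized reads in the 4 low-glucose samples and 1218, 1226, 1194 and 1236 in the 4 high-glucose samples. The groups did not overlap and the fall was small and even (-0.26 ± 0.04, adjusted p = 9.51e-05). Falls were larger for CDT1 (-0.46 ± 0.07), for the origin recognition subunits ORC6 (-0.46 ± 0.10) and ORC1 (-0.41 ± 0.08), and close to that of CDC6 for geminin (GMNN), the inhibitor of CDT1 (-0.24 ± 0.05). In MDA-MB-468, 3 were lower and 2 not called. ORC6 led there, with 321, 378, 319 and 318 in low and 208, 227, 227 and 272 in high glucose. All high-glucose values of ORC6 lay below all low-glucose values, although the second low-glucose library stood above its group and the fourth high-glucose library above its own (-0.52 ± 0.09, adjusted p = 0.000102). ORC1 (-0.17) and CDT1 (-0.13) also fell, CDT1 with overlapping groups, whereas CDC6 (0.02, adjusted p = 0.747) and GMNN (-0.05, adjusted p = 0.351) missed the threshold.

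The MCM2 to MCM7 ring, the core of the replicative helicase, was lower in MDA-MB-231 for 6 of 6 subunits, within the narrow span of -0.41 (MCM6) to -0.23 (MCM7). MCM6 gave 892, 926, 929.8 and 949 in low and 685, 696, 711 and 692 in high glucose. The high values of MCM6 sat tightly together and well under the low values (-0.41 ± 0.04, adjusted p = 3.07e-06). In MDA-MB-468 the subunits parted: MCM2 0.23, MCM3 0.27 and MCM5 0.49 rose, MCM7 (-0.11) fell, and MCM4 (0.01, adjusted p = 0.893) and MCM6 (0.07, adjusted p = 0.051) were not called. MCM5 gave 1427, 1327, 1394 and 1319 in low and 1812, 1891, 1949 and 2004 in high glucose in that line (0.49 ± 0.04, adjusted p = 5.91e-08). In MDA-MB-231 it gave 1312, 1139, 1338 and 1121 and then 1029, 982, 957 and 999 (-0.30 ± 0.06, adjusted p = 0.00103). Glucose groups of MCM5 did not overlap in either line, and they moved in opposite directions. Per kb of transcript, the subunit with the highest mean level exceeded the lowest by 4.79-fold in low and 5.40-fold in high glucose in MDA-MB-231, and by 5.21-fold and 3.45-fold in MDA-MB-468.

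Factors that activate the helicase were lower in MDA-MB-231 for 6 of 6: CDC45 -0.55, MCM10 -0.50, GINS4 -0.38, GINS2 -0.37, GINS1 -0.30 and GINS3 -0.30. MCM10, which helps set the loaded helicase in motion, gave 431, 505, 448 and 459.6 in low and 335, 305, 320.4 and 339 in high glucose. No high-glucose value of MCM10 reached the lowest low-glucose value (adjusted p = 2.55e-05). GINS3 passed only narrowly (adjusted p = 0.0485). The 4 subunits of GINS, which join CDC45 and the MCM ring, did not move together in MDA-MB-468. GINS2 rose from 551 ± 26.7 (SD, n = 4) to 726 ± 52.4 normalized reads (0.40 ± 0.06) and GINS1 by 0.17, GINS3 measured -0.00 (adjusted p = 0.962), and GINS4 fell. GINS4 gave 664, 646, 607 and 676 in low and 475, 519, 454 and 435 in high glucose (-0.46 ± 0.06, adjusted p = 7.21e-06), with no overlap. CDC45 (-0.12) and MCM10 (-0.08) missed the threshold, with adjusted p of 0.116 and 0.276.

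Among the polymerases and primase, 8 of 9 members were lower in MDA-MB-231 and POLA2 was not called. POLE, the catalytic subunit of the leading-strand polymerase, gave 827, 801, 829 and 827 in low and 634, 626, 629 and 636 in high glucose. Replicates of POLE lay within a few percent of each other in both groups, far closer than the gap between them (-0.38 ± 0.04, adjusted p = 7.40e-06). The catalytic subunits POLA1 (-0.50 ± 0.06) and POLD1 (-0.40 ± 0.06) fell by similar amounts or more, and the accessory subunit POLE2 fell (-0.50 ± 0.14, adjusted p = 0.0213) although its groups overlapped. Primase subunits PRIM1 (-0.34 ± 0.10) and PRIM2 (-0.27 ± 0.07) fell, and of the accessory subunits of polymerase delta POLD3 fell by 0.29 and POLD2 by 0.13, the smallest fall called. In MDA-MB-468, POLD2 had the largest rise of all members, from 1864, 1773, 1990.3 and 1785 to 2654, 2703, 2883 and 2904 (0.59 ± 0.04, adjusted p = 1.10e-08). Every high-glucose value of POLD2 stood well above every low-glucose value. POLD3 rose as well (0.26 ± 0.04), while POLD1, the catalytic subunit of the same polymerase, was not called (0.07, adjusted p = 0.218). PRIM2 (-0.44 ± 0.06), POLE (-0.21 ± 0.04) and POLA2 (-0.16 ± 0.05) fell, and PRIM1 (-0.07), POLA1 (-0.06) and POLE2 (0.09) were not called. An unprocessed pseudogene, PRIM2BP, is annotated beside PRIM2 and has no row of its own in the table, so the PRIM2 counts are uncertain.

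PCNA, the sliding clamp, gave 1563, 1615, 1611 and 1662 in low and 1293, 1282, 1244 and 1256 in high glucose in MDA-MB-231 (-0.35 ± 0.04, adjusted p = 3.72e-06). Its groups were clearly apart in that line. In MDA-MB-468 it went from 6958 ± 233 to 7489.8 ± 155 (SD, n = 4 each), a called rise of 0.11 that dropped to 0.03 (adjusted p = 0.413) after a correction for transcript length. RFC1 to RFC5 form the loader that opens the clamp. In MDA-MB-231, RFC3 -0.34, RFC5 -0.29, RFC2 -0.22 and RFC4 -0.20 fell and the large subunit RFC1 (-0.09) did not pass, RFC4 being close to the threshold (adjusted p = 0.0474). In MDA-MB-468, RFC4 fell from 569, 601, 540.0 and 526 to 449, 448, 474 and 460.2. Its groups did not overlap (-0.29 ± 0.05, adjusted p = 0.000332). RFC1 fell by 0.15 and RFC2 rose by 0.16, both with overlapping groups (RFC2 measured 0.09, adjusted p = 0.173, after the length correction), and RFC3 (-0.12) and RFC5 (0.01) were not called.

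Replication protein A, the trimer that coats single-stranded DNA, had the median closest to 0 of the 10 roles in MDA-MB-231 (-0.07), where RPA1 fell and RPA2 and RPA3 did not pass. RPA1 gave 2854, 2913, 2735 and 2788 in low and 2534, 2565, 2369 and 2611 in high glucose (-0.16 ± 0.04, adjusted p = 0.00508), and the groups did not overlap. In MDA-MB-468 it rose, from 2030.0, 2067, 1989 and 1997 to 2355, 2207, 2354 and 2225 (0.18 ± 0.03, adjusted p = 0.000428). RPA2 fell there (-0.15 ± 0.04) and RPA3 rose (0.15 ± 0.06, adjusted p = 0.0376), RPA3 with overlapping groups. The call of RPA3 was lost under DESeq2 and after the length correction (0.10, adjusted p = 0.119), and without any 1 of 6 of the 8 libraries. RPA3 shares 118 bases (5.84%) with UMAD1 on the opposite strand, which rose by 0.63 in MDA-MB-468 (adjusted p = 2.20e-06). The strand setting of the counting is not stated, so RPA3 counts may hold UMAD1 reads.

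Okazaki fragments are trimmed by the flap nuclease FEN1 and sealed by the ligase LIG1, and both genes fell in MDA-MB-231. FEN1 gave 1995, 1982, 1967 and 1887 in low and 1407, 1485, 1524 and 1491 in high glucose in that line (-0.41 ± 0.04, adjusted p = 7.32e-07). In MDA-MB-468 it gave 1775, 1777, 1871 and 1846 and 2029.9, 1880.0, 2136 and 2162 (0.17 ± 0.04, adjusted p = 0.00304). Both sets were free of overlap, with high glucose lower in the first line and higher in the second. LIG1 changed by -0.38 ± 0.05 in MDA-MB-231 (adjusted p = 9.92e-05) and by -0.01 ± 0.04 in MDA-MB-468, where it was not called (adjusted p = 0.805).

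Claspin (CLSPN), an adaptor that couples stalled forks to the checkpoint kinase CHEK1, was lower in both lines. It gave 600.2, 559.7, 531 and 585 in low and 371, 343, 434 and 407 in high glucose in MDA-MB-231 (-0.55 ± 0.07, adjusted p = 2.60e-05). In MDA-MB-468 it gave 1277, 1213, 1252 and 1357 and 935, 1057, 817 and 791 (-0.51 ± 0.07, adjusted p = 1.89e-05). Neither line showed overlap, though the high-glucose replicates of MDA-MB-468 were widely spread. TIMELESS and TIPIN form the fork protection complex. TIMELESS fell in MDA-MB-231 (-0.31 ± 0.04) and was not called in MDA-MB-468 (-0.02 ± 0.04), whereas TIPIN was not called in MDA-MB-231 (-0.12 ± 0.10) and fell in MDA-MB-468 (-0.26 ± 0.09).

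Enzymes that supply deoxynucleotides had the lowest median of the 10 roles in MDA-MB-231 (-0.53), and 4 of 4 were called lower. The median of the 2 chromatin assembly members was almost the same (-0.52). Thymidylate synthase (TYMS), which makes thymidylate, gave 1838, 1877, 1883 and 1868 in low and 1194, 1175, 1178 and 1218 in high glucose. Its mean fell by 36.2% on the fitted scale and the groups lay far apart (-0.65 ± 0.03, adjusted p = 1.90e-09). In MDA-MB-468 it gave 2609.7, 2664, 2579 and 2530.2 and 2811, 2836, 3074 and 2863, a rise with no overlap (0.16 ± 0.03, adjusted p = 0.0013). The regulatory subunit of ribonucleotide reductase, RRM2, fell by 0.61 in MDA-MB-231 and less, by 0.12, in MDA-MB-468. Its partner, the large subunit RRM1, fell by 0.39 in MDA-MB-231 and measured -0.04 in MDA-MB-468 (adjusted p = 0.324). Thymidine kinase (TK1), the salvage route to thymidylate, fell in MDA-MB-231 (-0.44 ± 0.06) and rose in MDA-MB-468 (0.19 ± 0.05). The last exons of TYMS overlap ENOSF1 on the opposite strand over 967 bases, 60.0% of its transcript, and the strand setting of the counting is not stated, so TYMS counts may hold ENOSF1 reads. ENOSF1 itself averaged 199.96 normalized reads in MDA-MB-231 (-0.17, adjusted p = 0.253) and averaged 881 in MDA-MB-468 (0.15, adjusted p = 0.00994). GINS4 likewise shares 1145 bases (30.4%) with an unnamed opposite-strand gene, which averaged 44.01 and 25.2 normalized reads in the lines.

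Chromatin assembly factor 1 places new histones behind the fork. Its large subunit CHAF1A gave 518, 558, 534 and 546 in low and 375, 379.7, 371 and 422 in high glucose in MDA-MB-231, without overlap (-0.48 ± 0.06, adjusted p = 1.49e-05). In MDA-MB-468 it fell by less (-0.13 ± 0.05, adjusted p = 0.0329). The partner CHAF1B gave 264, 287, 253 and 287 and 184, 181, 190.4 and 183 in MDA-MB-231, a fall of the same order (-0.56 ± 0.07, adjusted p = 3.31e-05). In MDA-MB-468, CHAF1B rose from 614, 608, 618 and 636 to 712, 709, 739 and 706 (0.21 ± 0.04, adjusted p = 0.000731). The replicates of CHAF1B spread most in low-glucose MDA-MB-231, from 253 to 287, and high and low glucose did not overlap in either line.

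**Figure D3:**
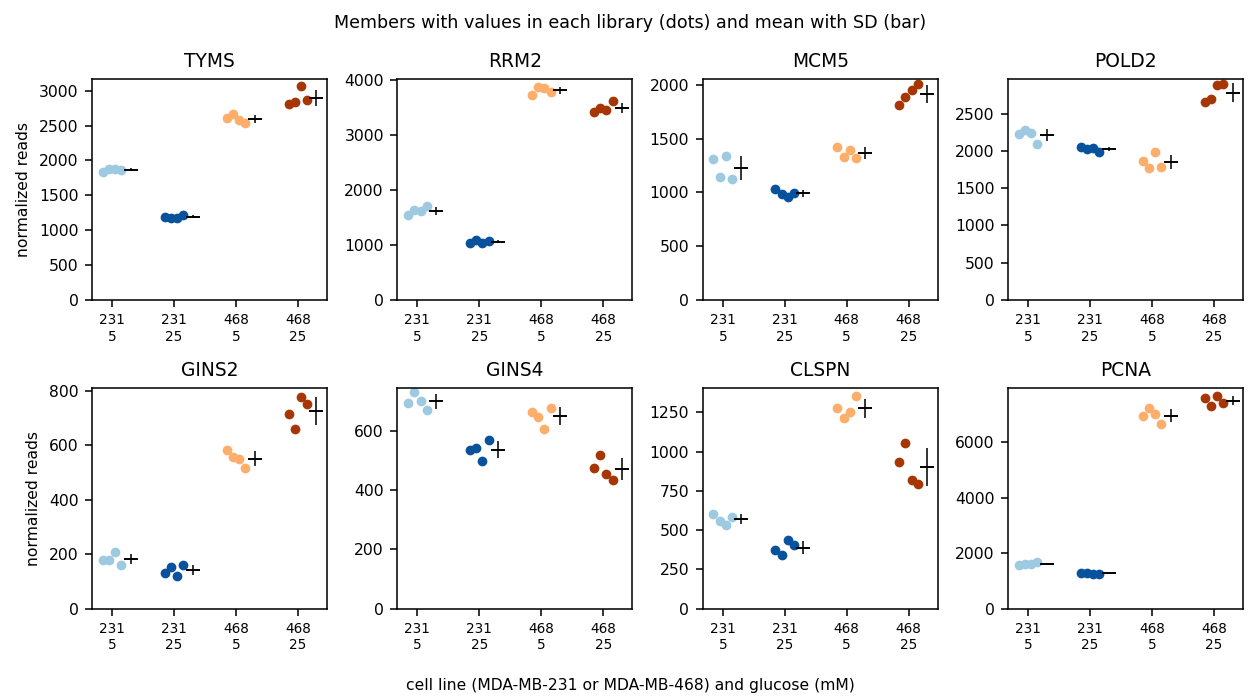
Normalized reads (y axis, from 0) of 8 members in each library (dots), with the mean and SD of the 4 replicates beside them, by line and glucose in mM (x axis). TYMS, MCM5, POLD2, GINS2 and PCNA go down in MDA-MB-231 and up in MDA-MB-468, whereas RRM2, GINS4 and CLSPN go down in both.

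The level of the members in the low-glucose control also differed between the lines. In low glucose, 35 members were higher in MDA-MB-468 than in MDA-MB-231, 8 were lower and 3 not called, so 76.1% were higher against a background of 45.0% of 17115 genes, and 17.4% lower against 40.4%. The median difference was 0.76, against 0.08 over all genes. The largest differences were those of PCNA (2.11 ± 0.03), POLA2 (2.05 ± 0.08) and MCM6 (2.04 ± 0.03). The 8 members lower in MDA-MB-468 were POLE2 -0.86, CDC6 -0.70, RPA1 -0.48, TK1 -0.28, MCM10 -0.26, POLD2 -0.26, RFC5 -0.21 and FEN1 -0.11, of which FEN1 lost its call under quantile rescaling, with a value of 0.03 (adjusted p = 0.484), and without low-glucose replicate 1 or 2 of MDA-MB-468 (adjusted p up to 0.0531). TIPIN, among those higher, measured 0.16 (adjusted p = 0.106) after a correction for transcript length, against 0.33 without it. GINS4, RPA2 and RRM1 were not called. The lines differ in origin and in much else, and what sets these levels cannot be told apart here.

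Per kb of transcript, which allows genes to be compared, the members of MDA-MB-231 in low glucose spanned 61 (CHAF1B) to 1376 (POLD2) normalized reads, with a median of 214. POLD2 was followed by PCNA (1264), MCM7 (1179), TYMS (1157) and TK1 (1144). In MDA-MB-468 they spanned 56.7 (POLE2) to 5453 (PCNA), with a median of 312, and PCNA was followed by MCM7 (2057), TYMS (1609) and MCM3 (1324). The median coefficient of variation of the members was 3.66% to 5.34% across the 4 groups. Its highest value for a single member was 13.9% in low and 21.8% in high glucose in MDA-MB-231, and 8.95% and 20.8% in MDA-MB-468.

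**Figure D4:**
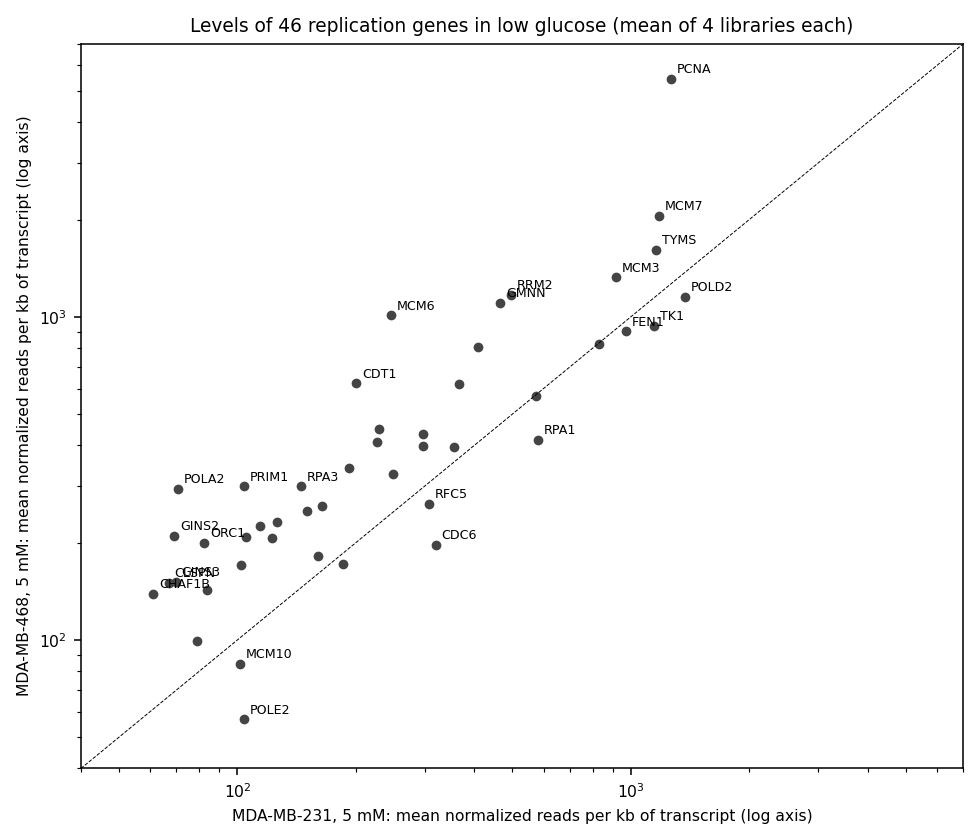
Mean normalized reads per kb of transcript in low glucose in MDA-MB-231 (x axis) and MDA-MB-468 (y axis), both on log axes, with a dashed line where both are equal. Most members lie above the line, PCNA, POLA2 and MCM6 farthest, and POLE2 and CDC6 lie below it.

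Other genes of the same processes, which are not among the 46, were lower in part in MDA-MB-231, and the mitotic genes were lower without exception. Of 17 other origin and helicase factors, 10 were lower and 0 higher in that line, led by the initiation factor TICRR (-0.68) and by WDHD1 (-0.47), which links polymerase alpha to the helicase. Of 14 other polymerase, clamp and maturation factors 7 were lower, led by the clamp unloader ATAD5 (-0.60) and topoisomerase TOP2A (-0.53). Among 8 other enzymes of nucleotide supply 4 were lower, among them the kinase DCK (-0.31), and among 8 factors of chromatin replication 6 were lower, led by HELLS (-0.42) and the histone chaperone ASF1B (-0.41). Of 9 checkpoint genes 1 was lower, the kinase WEE1 (-0.29), a share near the 9.37% of all genes. All 14 mitotic genes were lower, with a median of -0.46, led by MKI67 (-0.62) and CDK1 (-0.57). None of these lists held a gene called higher in MDA-MB-231.

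In MDA-MB-468, where 24.9% of all genes were called higher and 22.7% lower, the same lists held calls in both directions. The counts of the polymerase, chromatin and checkpoint lists lay near those shares and say nothing particular about these genes. Other origin and helicase factors had 2 higher and 10 lower, with DBF4B (0.77), an activator of the kinase CDC7, and MCM9 (-0.65) at the ends. Other polymerase, clamp and maturation factors had 4 higher and 3 lower, with RNASEH2C (1.17), a subunit of ribonuclease H2, and DSCC1 (-0.64), part of an alternative clamp loader. RNASEH2C shares 1072 bases (40.5%) with KAT5 on the opposite strand. Nucleotide supply had 3 higher and 4 lower (SAMHD1, -0.38, which degrades deoxynucleotides, and DTYMK, 0.34), chromatin replication 1 higher (ASF1A, 0.56) and 2 lower (HELLS, -0.45, the larger), and checkpoint genes 1 higher (RAD1, 0.37) and 2 lower (HUS1, -0.75, the larger). Of 14 mitotic genes, 6 were higher and 2 lower, with PLK1 (0.71) and CENPE (-0.29) at the ends. In the interaction contrast 13 of the 14 mitotic genes were positive and past the threshold and 0 negative, with a median of 0.51. Over all genes tested in that contrast, 17.0% were positive and 13.9% negative past the threshold. In low glucose the mitotic list stood opposite to the replication genes between the lines, with 13 of 14 lower and 0 higher in MDA-MB-468 (median -0.71). Over all genes, 40.4% were lower and 45.0% higher between the lines.

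Transcript length moved with the response over all genes. The log2 fold change had a Spearman's rho with length of -0.19 (MDA-MB-231, 14289 genes) and -0.15 (MDA-MB-468, 15079 genes), across genes that share the same libraries. The members' median transcript length was 3094.5 bases, close to the 3114 and 2997 of the genes tested in the lines. After a correction for length, 41 members were lower in MDA-MB-231, and 13 were higher and 19 lower in MDA-MB-468. Named pseudogenes are annotated for 12 members, and 0 of these pseudogenes have a row in the table, so reads from them could be counted with the parent gene or lost.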

How the data were processed

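Total RNA of 16 samples (2 lines, 2 glucose levels, 4 replicates per group) was sequenced by the authors on an Illumina HiSeq. The study's methods describe a stranded library kit, TopHat alignment to hg19 and analysis with DESeq2 and edgeR for tumors and xenografts, and do not state them for the cell lines. The labels list hg38 and edgeR, and the build behind the table is open to doubt, so genes were matched by Ensembl ID and no gene coordinate of the table was used. The aligner, the counting program and its use of strand for these samples are not given in the sources used here. The deposited values are a normalized signal, read counts that the authors divided by 1 size factor per library. Divided by the value of a single read, 100% of them came out whole (tolerance 0.001 reads), which gave back the reads.

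Symbols were found for 17647 of 18332 IDs in a list of gene names by Ensembl ID. A GENCODE annotation lifted to GRCh37 gave the length of each gene's canonical transcript. Genes with at least 0.5 CPM (reads scaled to library size) in 2 or more samples of a fit entered limma 3.58.1 under R 4.3.3 (lmFit and eBayes with trend, two-sided) on log2(value + 1), each line alone. The interaction and the contrast of lines in low glucose came from 1 fit of 4 group means over 16 samples. On the recovered reads, the edgeR 4.0.16 quasi-likelihood test called 2244 genes (MDA-MB-231) and 7484 genes (MDA-MB-468), beside 2245 and 7495 by limma. DESeq2 1.42.0, pseudocounts of 0.5 and 5, other filters, TMM and quantile scaling, a length correction, a replicate block, a fit over all samples and leaving out each replicate were the alternatives. The steps were tested on simulated data. In no line did samples of the same replicate number deviate together, so the numbers were not taken as pairs. Counts limit precision to 0.123 to 0.213 CPM for 3 reads, which covers counting error only.

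The members and all lists were chosen with earlier results of these data known. Values of every sample are given for the member of each role with the smallest adjusted p in each line and for the 3 members with the largest interaction in each direction among those past the threshold, where none was negative. Other lists are represented by the 2 called genes with the largest change per line, apart from 1 gene not reported here. The symbols UHRF1, PGR, CD3E, PECAM1 and ALB could not be matched and were not analysed here.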

Additional observations from a re-analysis of the deposited data

Results flagged for a closer look

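In 7 of the 184 sets of 4 replicates, the highest or lowest value stood apart from the other 3 by Dixon's criterion, which chance meets in about 1 set in 20. ORC1 had a low value of 217 normalized reads in low-glucose MDA-MB-231 and a high value of 209.9 in high-glucose MDA-MB-231. In low-glucose MDA-MB-231, POLE had a low value of 801 and RFC4 a low value of 294. In low-glucose MDA-MB-468, ORC6 had a high value of 378 and TIMELESS a high value of 1324, and in high-glucose MDA-MB-468 POLD3 had a low value of 989.7. Without the library concerned, the direction and the call of each gene's glucose response were the same.

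The response to glucose differed between the lines for 33 members by the interaction contrast, each given as MDA-MB-468 minus MDA-MB-231 on the log2 scale. For licensing the differences were CDC6 0.28, CDT1 0.33 and GMNN 0.19. For the MCM ring they were MCM2 0.51, MCM3 0.54, MCM4 0.36, MCM5 0.79 and MCM6 0.48, and for its activators MCM10 0.42, CDC45 0.43, GINS1 0.47, GINS2 0.76 and GINS3 0.29. For the polymerases they were POLA1 0.44, POLD1 0.47, POLD2 0.71, POLD3 0.56 and POLE 0.17. For the clamp, its loader and replication protein A they were PCNA 0.45, RFC2 0.37, RFC3 0.22, RFC5 0.30, RPA1 0.34 and RPA3 0.22. For Okazaki maturation and fork protection they were FEN1 0.58, LIG1 0.37 and TIMELESS 0.29, for nucleotide supply RRM1 0.36, RRM2 0.49, TYMS 0.80 and TK1 0.63, and for chromatin assembly CHAF1A 0.34 and CHAF1B 0.77.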

How the results depend on the processing

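Over 20 alternatives per line and 27 for the other contrasts, no member changed direction while called, except in the contrast of lines under quantile rescaling, where FEN1 turned to 0.0312 (adjusted p = 0.484) and RRM1 to 0.137 (adjusted p = 0.000213). With all libraries kept, the members lower in MDA-MB-231 numbered 37 to 41 and none was higher. In MDA-MB-468, 13 to 16 were higher and 13 to 19 lower. The interaction was positive for 29 to 34 members and negative for 0, except 1 under quantile rescaling (RPA2, -0.14, adjusted p = 0.0347). In low glucose 34 to 36 were higher and 7 to 9 lower in MDA-MB-468. When each replicate was left out in turn, 35 to 38 were lower in MDA-MB-231, 12 to 15 higher and 12 to 15 lower in MDA-MB-468, 29 to 33 positive in the interaction, and 35 higher and 7 to 9 lower between lines. Over all genes these fits called 1629 to 2389, 6759 to 7398, 4913 to 5467 and 14360 to 14606 genes in the same order of comparisons.

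Calls held under every alternative for 33 of the 41 members called in MDA-MB-231, 22 of 30 in MDA-MB-468, 28 of 33 in the interaction and 41 of 43 between lines. Some members not called were called under at least 1 alternative: 0 in MDA-MB-231, 5 in MDA-MB-468, 5 in the interaction and 2 between lines. Among them, MCM6 in MDA-MB-468 was called under 6 of 20 alternatives, and POLE2 in the interaction under 5 of 27. In MDA-MB-231, single libraries whose removal ended a call were, for GINS3, all but high-glucose replicate 3 (adjusted p up to 0.152); for RFC4, all but low-glucose replicate 3 (up to 0.134); for POLD2, all but low 4 and high 1 (up to 0.0783); for GINS2, low 1, 2 and 3 and high 1 and 3 (up to 0.0873); for PRIM1, low 1 and 2 and high 2 and 4 (up to 0.100); for POLE2, low 3 and 4 and high 4 (up to 0.0653); for PRIM2, low 1 and high 4 (up to 0.0546); and for RFC2, low 2 and high 3 (up to 0.0655). In MDA-MB-468 they were, for RPA3, all but low 1 and high 2 (up to 0.108); for CDT1, low 1 and 3 and high 1, 2 and 3 (up to 0.116); for CHAF1A, low 2, 3 and 4 and high 2 and 4 (up to 0.0969); for RFC2, low 1, 3 and 4 and high 1 and 4 (up to 0.120); for GINS1, low 1 and 2 and high 1 and 2 (up to 0.0988); and for TIPIN, low 3 and high 1 (up to 0.0671). In the interaction, GMNN, GINS3, RFC3 and RPA3 lost their calls without any of 12, 11, 11 and 4 libraries (adjusted p up to 0.103, 0.0747, 0.0880 and 0.0586). Other settings ended calls as well. In MDA-MB-231, DESeq2, TMM, no filter, a pseudocount of 5 and the replicate block each did so for GINS3 and RFC4, as did edgeR for GINS3 and quantile rescaling for RFC4 (adjusted p up to 0.124 and 0.121), DESeq2 and the block for PRIM1 (0.0595), the block for GINS2 (0.0660), quantile rescaling for POLD2 (0.0863) and the fit over all samples for POLE2 (0.0604). In MDA-MB-468 it was the length correction for PCNA, RFC2 and RPA3 (up to 0.413, 0.173 and 0.119), quantile rescaling for PCNA, DESeq2 for RPA3, TIPIN (0.0585), GINS1 and CHAF1A, the block for CHAF1A (up to 0.0689) and the fit over all samples for CDT1 (0.111), POLA2 (0.141) and GINS1 (up to 0.0638). In the interaction it was 6 settings for GMNN (up to 0.0880), 5 for RFC3 (0.0858), DESeq2 and quantile rescaling for GINS3 (0.0879), DESeq2 for RPA3 (0.0626) and quantile rescaling for POLE (0.0556), and between lines the length correction for TIPIN (0.106). The causes were not tested.

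With the replicate number as a block, 37 members were lower in MDA-MB-231, 15 were higher and 14 lower in MDA-MB-468, and 32 were positive in the interaction, with 1624 and 7383 genes called in the lines over all genes. Same-numbered samples did not deviate together: the correlation of their deviations was -0.04 to -0.01 in MDA-MB-231 and 0.02 to 0.03 in MDA-MB-468.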
